A study of Rattus norvegicus with 9 samples.

Results

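The genes described here are 10 of the 36267 features in a gene table of rat kidneys. They were taken by symbol, 1 row each: the transcription factors Atf4, Atf5 and Ddit3, the stress-induced genes Asns, Trib3, Chac1 and Sesn2, and the serine synthesis enzymes Phgdh, Psat1 and Psph. Each of 3 groups held 3 rats of 180 to 200 g. Control rats were untreated. Rats with contrast-induced acute kidney injury (CIAKI) had the loop diuretic furosemide by stomach (200 mg/kg), 6 h of dehydration, and then the iodinated X-ray contrast medium iopromide (370 mg I/mL) by tail vein at 15 mL/kg. Icariin rats first had icariin, a plant flavonoid glycoside, by stomach at 100 mg/kg once a day for 3 days, and then the whole injury protocol. Icariin without contrast medium, and furosemide or dehydration without it, were not among the groups, so these parts of the protocol cannot be told apart. For strain, sex, age and the time of kidney removal, the sources used here give nothing. The question the design addresses is which transcripts differ in the injured kidney, and which of them differ again when icariin came first.

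The integrated stress response is a shared answer of cells to amino acid shortage, misfolded protein in the endoplasmic reticulum (ER), haem shortage, viral RNA and mitochondrial trouble. A sensor kinase phosphorylates the translation factor eIF2, bulk protein synthesis slows, and the messenger RNA of ATF4 is translated more. ATF4 then switches on genes for amino acid uptake, amino acid synthesis and the charging of transfer RNA, and, when stress lasts, its partner CHOP (the product of Ddit3). Serine synthesis is one of the pathways ATF4 is known to serve: PHGDH oxidises the glycolytic intermediate 3-phosphoglycerate, PSAT1 transfers an amino group to it, and PSPH removes the phosphate. In the kidney these enzymes are known mainly from the proximal tubule, the segment that reabsorbs most filtered solutes and releases serine to the blood.

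In CIAKI kidneys Atf4, Atf5, Asns, Trib3 and Chac1 rose, Phgdh and Psph fell, and Psat1 stood at its control level. Trib3 and Chac1 could be tested only because they were high in CIAKI. In icariin kidneys the 5 genes that rose in CIAKI stood near control, as did Phgdh, while Psph stood below control. Psat1 fell in icariin against CIAKI, a call that most alternative analyses did not keep. Ddit3 and Sesn2 did not pass the test in any of the 3 comparisons.

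Levels are in CPM, a gene's reads as a share of its library on a fixed scale, with 64.4 to 90.4 reads to 1 CPM in the 9 libraries. Differences are log2 fold changes of CPM + 1 with their standard errors (SE), tested with limma in 1 fit of all 9 libraries over 16731 features (1 CPM or more in 3 libraries or more). A gene is said to have risen or fallen where its Benjamini-Hochberg adjusted p, 2-sided and over all those features, was below 0.05. Marker genes of kidney cells shifted between the groups. The summed CPM of 10 proximal tubule markers was 22654 to 26466 in control, 10099 to 13702 in CIAKI and 22846 to 24601 in icariin libraries. Lrp2 alone had 9795 to 11793 CPM in control and 3876 to 6196 CPM in CIAKI libraries. Cubn, Slc5a12 and Aqp1 overlapped between control and CIAKI. Markers of podocytes summed to 720 to 779, 470 to 482 and 573 to 729 CPM in the same order, and those of macrophages to 103 to 113, 55 to 93.1 and 87.2 to 126 CPM. Of the 6 macrophage markers tested 2 fell in CIAKI, beside 20.5% of all features, and the markers did not move together. Csf1r and Adgre1 were lower in every CIAKI rat than in any control rat, and Cd163 was higher. C1qb and C1qc were higher than in any control rat in CIAKI rats 1 and 2. Erythroid markers summed to 270 to 916 CPM in control, 1238 to 1516 CPM in CIAKI and 326 to 908 CPM in icariin libraries. The sum includes Slc4a1, which also stands among the distal and collecting duct markers. Of the 5 tested 2 rose in CIAKI, beside 20.8% of all features. Hbb varied widely between rats, from 68.6 to 401 CPM in control and from 67.5 to 416 CPM in icariin libraries. Neutrophil markers summed to at most 3.82 CPM in any library, with Elane at 0. Lymphocyte markers were also scarce, at 6.73 to 7.61 CPM in control, 1.04 to 1.13 in CIAKI and 2.78 to 4.52 in icariin libraries. All 3 lymphocyte markers tested fell in CIAKI, beside 20.5% of all features.

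Atf4 (ENSRNOG00000017801), the transcription factor at the centre of the response, had 88.6, 90.2 and 99.1 CPM in control kidneys and 232, 304 and 186 CPM in CIAKI kidneys. In icariin kidneys it had 90.9, 88.1 and 86.5 CPM. Every CIAKI rat thus lay far above every rat of the other groups, and the control and icariin ranges overlapped. The group means were 92.6 ± 5.66, 240.5 ± 59.9 and 88.5 ± 2.24 CPM (SD, n = 3 rats in each group). Atf4 rose in CIAKI by 1.34 (SE 0.15, adjusted p = 0.00024, limma), and it fell in icariin against CIAKI by 1.40 (adjusted p = 0.00023). The difference between icariin and control was -0.06, with a 95% interval from -0.40 to 0.27.

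Atf5 (ENSRNOG00000020060), a close relative of ATF4 that is translated in the same stress-dependent way, was at 11.8, 11.8 and 13.2 CPM in control. It was at 20.8, 18.4 and 20.9 CPM in CIAKI and at 12.5, 12.5 and 10.5 CPM in icariin kidneys. The CIAKI rats stood close together and above all others. Atf5 rose by 0.67 (SE 0.11, adjusted p = 0.0015, limma) and fell in icariin against CIAKI by 0.72 (adjusted p = 0.0012). The gene overlaps Nup62 and Il4i1 in the RefSeq annotation, and no strand setting is given for the counting, so reads of these genes cannot be told apart.

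Ddit3 (ENSRNOG00000006789), which encodes the pro-death factor CHOP, was low and did not pass the test. Control kidneys had 6.45, 6.02 and 10.002 CPM, CIAKI kidneys 8.09, 9.90 and 12.2 CPM, and icariin kidneys 7.66, 6.71 and 6.00 CPM. The control rat at 10.002 CPM lay within the CIAKI range. The difference between CIAKI and control was 0.39 (SE 0.20, 95% interval from -0.07 to 0.86, adjusted p = 0.15, limma). That between icariin and CIAKI was -0.49 (adjusted p = 0.084). Without control rat 3 both passed, at 0.60 (adjusted p = 0.041) and -0.49 (adjusted p = 0.049). Ddit3 overlaps Mars1, the methionyl-tRNA synthetase gene that itself rose, and their reads cannot be told apart.

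**Figure D1:**
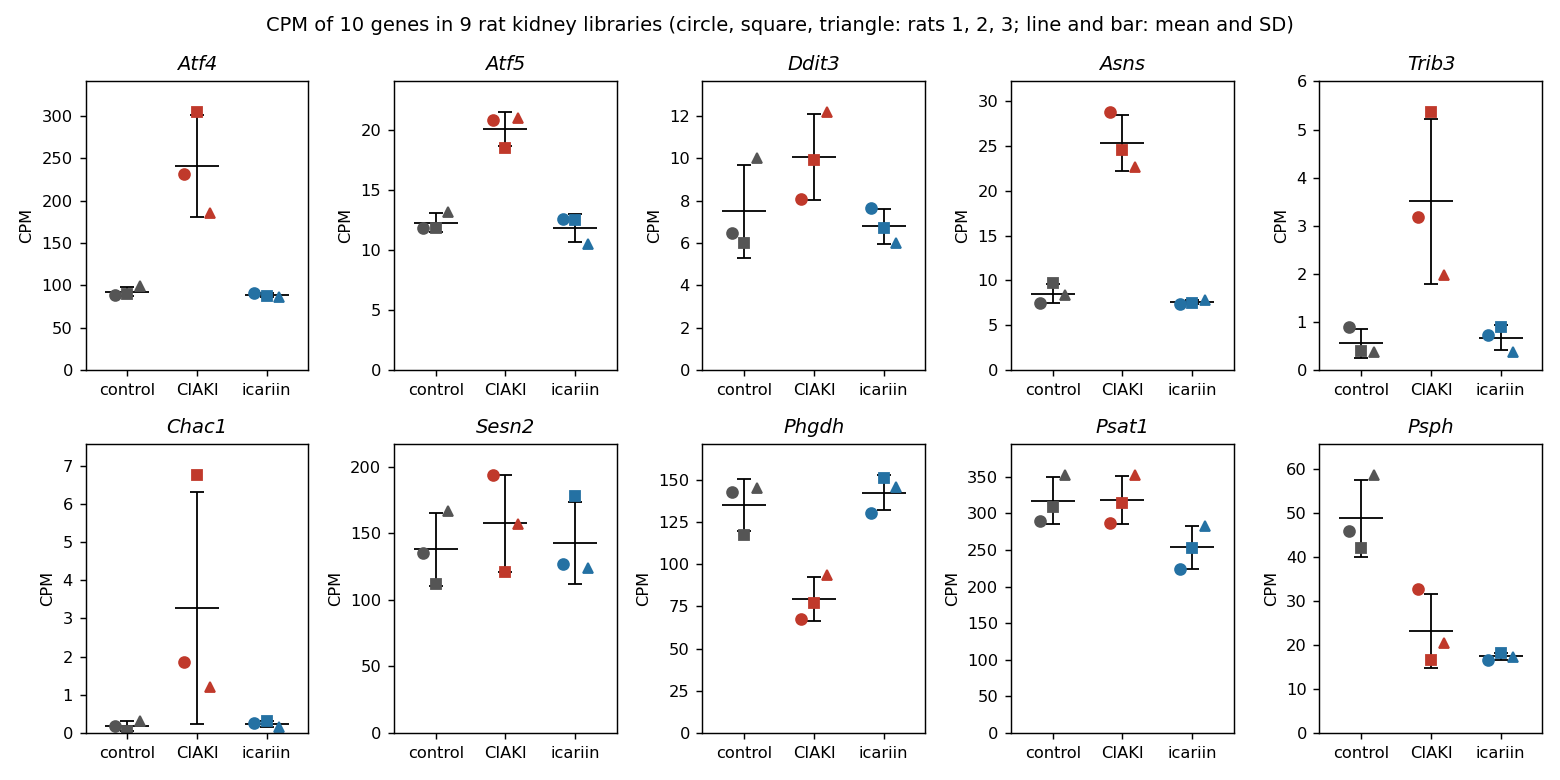
Level of the 10 genes in CPM (vertical axes, each gene on its own scale starting at 0) in control, CIAKI and icariin kidneys. Symbols stand for single rats (numbers 1 to 3 of each group), and bars for the mean and SD. Atf4, Atf5, Asns, Trib3 and Chac1 stand highest in CIAKI, Phgdh lowest in CIAKI, and Psph high in control only.

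Asns (ENSRNOG00000007546) encodes asparagine synthetase, which makes asparagine from aspartate and glutamine and is a standard readout of ATF4. It was at 7.52, 9.69 and 8.42 CPM in control, 28.8, 24.6 and 22.6 CPM in CIAKI, and 7.36, 7.52 and 7.79 CPM in icariin kidneys. All CIAKI rats lay above all others, and the icariin rats differed little among themselves. The means were 8.54 ± 1.09, 25.3 ± 3.14 and 7.55 ± 0.219 CPM (SD, n = 3), so CIAKI stood 2.96-fold above control. Asns had the smallest p of the 10 genes in both comparisons with CIAKI. It rose by 1.46 (SE 0.13, adjusted p = 7.8e-05, limma) and fell in icariin against CIAKI by 1.62 (adjusted p = 7.1e-05).

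Trib3 and Chac1 were scarcely present outside the CIAKI group. Trib3 (ENSRNOG00000007319), a pseudokinase that restrains ATF4 and AKT signalling, had 0.904, 0.402 and 0.370 CPM in control (66, 28 and 28 reads). It had 3.19, 5.37 and 1.99 CPM in CIAKI (265, 361 and 128 reads) and 0.736, 0.906 and 0.387 CPM in icariin kidneys (48, 64 and 35 reads). Chac1 (ENSRNOG00000014387), which degrades the antioxidant glutathione, had 0.192, 0.0574 and 0.317 CPM in control (14, 4 and 24 reads). It had 1.85, 6.76 and 1.20 CPM in CIAKI (154, 455 and 77 reads) and 0.260, 0.311 and 0.155 CPM in icariin kidneys (17, 22 and 14 reads). For both genes every CIAKI rat lay above all others, with CIAKI rat 2 the highest and CIAKI rat 3 the lowest, the same order as for Atf4.

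Trib3 rose by 1.48 (SE 0.28, adjusted p = 0.0028, limma) and fell in icariin against CIAKI by 1.37 (adjusted p = 0.0044). Chac1 rose by 1.62 (SE 0.39, adjusted p = 0.0098, limma) and fell by 1.56 (adjusted p = 0.013). The added 1 CPM compresses the change of such low genes. The ratio of the group means in CPM was 6.29 for Trib3 and 17.3 for Chac1, and on whole reads edgeR's quasi-likelihood test gave 2.65 for Trib3 (adjusted p = 0.0045) and 4.10 for Chac1 (adjusted p = 0.0046). CIAKI rat 2 carried much of the Chac1 value: without it the rise was 1.08 (adjusted p = 0.0034, limma), and the fall with icariin was 1.01 (adjusted p = 0.0048). Both genes passed the filter on low values through the CIAKI libraries alone, so they could be tested only because they were high there.

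Their promoters are shown because these 2 of the 10 genes carry, in the 250 bases before the start, the core letters of the element that ATF4 binds together with C/EBP factors. The letters searched were TGATGNAA on either strand (TTNCATCA on the other). They occur in 1139 of 33469 RefSeq promoters of the same length (3.4%, assembly GRCr8). Below, the match is in capitals, and each sequence reads 5′ to 3′ along the gene's strand. For Trib3 the stretch is chr3:161275534-161275653, minus strand, and the match lies 21 to 14 bases before the start. For Chac1 it is chr3:126795908-126796027, plus strand, and the match lies 167 to 160 bases before the start.
Trib3: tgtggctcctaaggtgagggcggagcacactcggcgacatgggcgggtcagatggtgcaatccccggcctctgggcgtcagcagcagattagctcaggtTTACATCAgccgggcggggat
Chac1: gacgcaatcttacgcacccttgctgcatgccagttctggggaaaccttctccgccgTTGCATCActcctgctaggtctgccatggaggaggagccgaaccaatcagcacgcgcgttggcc
A match is a description of these letters, and the other 8 genes simply lack them in this window.

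Sesn2 (ENSRNOG00000042785), a leucine-binding inhibitor of the growth kinase mTORC1 that ATF4 and p53 can induce, did not pass the test in any comparison. It had 135, 112 and 167 CPM in control, 194, 121 and 157 CPM in CIAKI, and 127, 178 and 124 CPM in icariin kidneys. The 3 ranges overlapped widely. The difference between CIAKI and control was 0.18, with a 95% interval from -0.29 to 0.65 (adjusted p = 0.52, limma). That interval lies below the rise of Atf4 and of Asns. Sesn2 overlaps the long non-coding RNA gene LOC134487007 in the RefSeq annotation, and their reads cannot be told apart.

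None of the serine synthesis enzymes rose with Atf4 in CIAKI. Phgdh (ENSRNOG00000019328), the first enzyme of the pathway, had 143, 117 and 145 CPM in control and 67.7, 77.3 and 93.4 CPM in CIAKI kidneys. In icariin kidneys it had 131, 151 and 146 CPM. Every CIAKI rat lay below every other rat, and control and icariin overlapped. The means were 135 ± 15.5, 79.5 ± 13.0 and 143 ± 10.6 CPM (SD, n = 3), so CIAKI kidneys held 58.8% of the control mean. Phgdh fell by 0.76 on the log2 scale in CIAKI (SE 0.13, adjusted p = 0.0017, limma), and it rose in icariin against CIAKI by 0.84 (adjusted p = 0.0011). In whole-kidney RNA, fewer cells of a type and less RNA per cell cannot be told apart. The summed proximal tubule markers were also lowest in CIAKI, where 7 of the 10 fell, beside 20.5% of all features. In icariin against CIAKI 8 of the 10 rose, beside 19.2% of all features. The part of these markers in the Phgdh values was not tested.

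Psat1 (ENSRNOG00000013971), the second enzyme, differed least of the 10 genes between control and CIAKI. It had 290.1, 309 and 352 CPM in control, 287, 314 and 353 CPM in CIAKI, and 224, 253 and 283 CPM in icariin kidneys. The CIAKI mean was 100% of the control mean and the difference 0.003, with a 95% interval from -0.25 to 0.26. All icariin rats lay below all others, although only by a little. Psat1 fell in icariin against CIAKI by 0.33 (adjusted p = 0.047, limma), a call that held in 8 of 21 alternative analyses. It was lost without control rat 1 or 2, CIAKI rat 2 or 3, or icariin rat 1 or 2 (adjusted p from 0.054 to 0.15). It was also lost with no filter on low values, upper-quartile or TMM scaling, only the 2 groups compared, or no intensity trend (0.067 to 0.098), with edgeR (0.081) and, narrowly, with DESeq2 (0.050). Against control the icariin difference was -0.32 (SE 0.11, adjusted p = 0.33).

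Psph (ENSRNOG00000000925), the last enzyme, was the only 1 of the 10 genes that passed the test between icariin and control. It had 45.9, 42.0 and 58.8 CPM in control, 32.8, 16.6 and 20.4 CPM in CIAKI, and 16.6, 18.3 and 17.3 CPM in icariin kidneys. Both groups given contrast medium lay wholly below control, and CIAKI rat 2 lay within the icariin range. The means were 48.9 ± 8.78, 23.3 ± 8.46 and 17.4 ± 0.82 CPM (SD, n = 3), so that CIAKI held 47.6% and icariin 35.6% of control.

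Psph fell in CIAKI by 1.08 (SE 0.22, adjusted p = 0.0042, limma). Between icariin and CIAKI it differed by -0.35 (95% interval from -0.84 to 0.15, adjusted p = 0.24). Against control it fell in icariin by 1.43 (SE 0.22, adjusted p = 0.028), which ranked 58th by p among all features. That call held in 13 of 21 alternative analyses. It was lost without the filter on low values (adjusted p = 0.061), with replicate numbers as a block (0.053), and without any 1 of the control or icariin rats (0.077 to 0.12), with a difference of at least 1.29 in size throughout. The summed proximal tubule markers were 22846 to 24601 CPM in icariin and 22654 to 26466 CPM in control kidneys, and their part in the Psph values was not tested.

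The balance between the enzymes was compared as ratios within each rat. Psph stood at 32.2, 35.8 and 40.4 CPM per 100 CPM of Phgdh in control rats and at 48.5, 21.5 and 21.8 in CIAKI rats. In icariin rats the ratio was 12.7, 12.1 and 11.9, below every other rat. An exact permutation test, 2-sided, gave p = 0.1 for icariin against control and against CIAKI, the smallest that 3 against 3 rats allow, and p = 0.4 for CIAKI against control. Phgdh per 100 CPM of Psat1 was 42.8 ± 5.80 in control, 24.9 ± 1.48 in CIAKI and 56.5 ± 4.25 in icariin kidneys (SD, n = 3), with no overlap between groups (exact permutation p = 0.1 for each pair). Over these 6 tests the adjusted p was 0.12 or more.

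Read against all features, the counts of these genes are as follows. Between CIAKI and control 5 of the 10 rose and 2 fell, while 20.8% of all features rose and 20.5% fell (41.3% in all). Leaving out Trib3 and Chac1, which were testable only through their CIAKI levels, 3 of 8 rose and 2 fell. Between icariin and CIAKI 1 of the 10 rose and 6 fell, beside 19.2% and 20.2% of all features (39.4% in all). Without Trib3 and Chac1, 1 of 8 rose and 4 fell. Between icariin and control 1 fell (Psph) and 9 did not pass, beside 0.4% of features that rose and 0.227% that fell (0.628% in all). Groups did not overlap for 7, 8 and 2 of the 10 genes in these comparisons, beside 53.4%, 50.7% and 19.3% of all features. CIAKI is part of the first 2 comparisons, so a rise in 1 and a fall in the other rest on the same CIAKI rats.

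**Figure D2:**
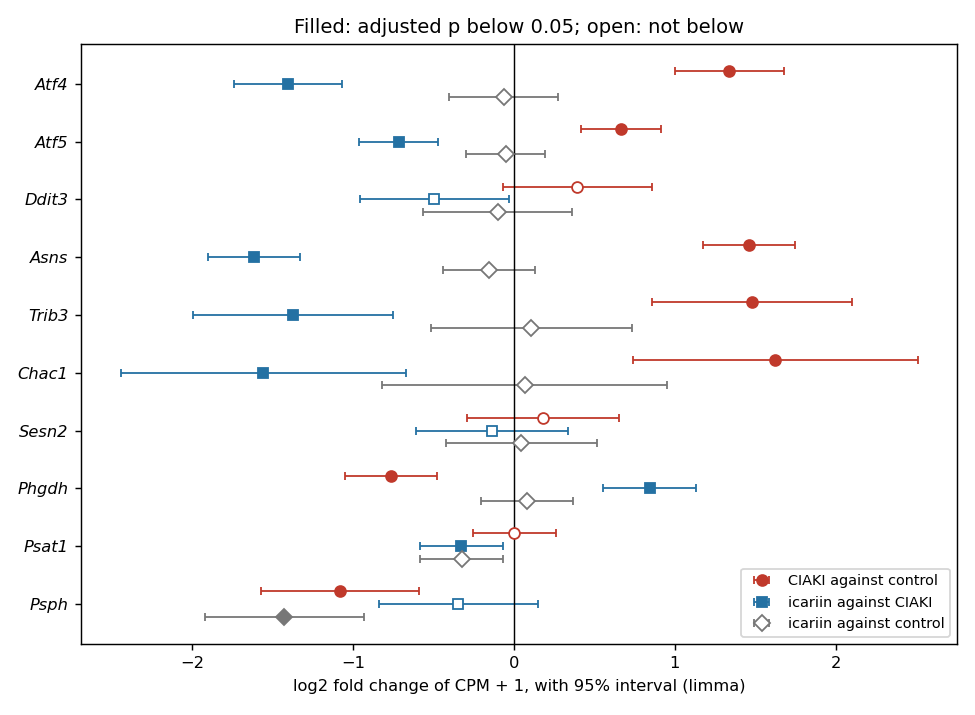
Log2 fold change of the 10 genes on the log2(CPM + 1) scale (horizontal axis) in the 3 comparisons of the groups. Points are estimates, lines their 95% intervals, and filled points passed the test. Asns, Trib3, Chac1, Atf4 and Atf5 lie right of 0 for CIAKI against control and left of 0 for icariin against CIAKI, and only Psph is filled for icariin against control.

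Levels of different genes can be compared per transcript length for 6 of the 10 genes, which are listed with FPKM (reads scaled to transcript length and library size) in a table of selected mRNAs for CIAKI and icariin libraries. In CIAKI kidneys Atf4 stood highest at 131.9 ± 33.3 FPKM (SD, n = 3), followed by Phgdh at 33.9 ± 6.15 and Atf5 at 15.0 ± 0.998 FPKM. Asns had 9.38 ± 0.969 FPKM. Chac1 (1.60 ± 1.51 FPKM) and Trib3 (1.39 ± 0.688 FPKM) did not differ beyond their spread. In icariin kidneys Phgdh stood highest at 62.2 ± 4.72 FPKM and Atf4 had 49.7 ± 1.02 FPKM, so that the order of these 2 genes was turned in all rats. Atf5 had 9.02 ± 0.783, Asns 2.87 ± 0.117, Trib3 0.273 ± 0.105 and Chac1 0.119 ± 0.039 FPKM there.

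Upstream of Atf4, no eIF2 kinase passed the test in CIAKI against control. The differences were 0.13 for Eif2ak1 (HRI, the haem sensor), 0.10 for Eif2ak2 (PKR, the sensor of double-stranded RNA), -0.07 for Eif2ak3 (PERK, the ER sensor) and 0.20 for Eif2ak4 (GCN2, the sensor of uncharged transfer RNA). These kinases act through phosphorylation, which RNA levels do not show. Of the 18 genes of the kinases and the eIF2 machinery, 9 rose and 1 fell in CIAKI, with a median of 0.25 beside -0.003 over all features. For this and the later lists, the shares over all features were 20.8% that rose and 20.5% that fell in CIAKI. In icariin against CIAKI they were 19.2% and 20.2%. Eif2s1, the eIF2 subunit that is phosphorylated, rose from 54.0 to 97.0 CPM (0.83, SE 0.08, adjusted p = 0.00011, limma). Eif2b3, a subunit of the exchange factor that recharges eIF2, rose by 1.01, and Dnajc3, an ER chaperone and kinase inhibitor, by 0.59. Dele1, which carries the mitochondrial stress signal to HRI, was the 1 that fell, from 107 to 78.0 CPM. In icariin against CIAKI 8 of the 18 fell and 1 rose, which was Dele1.

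Cytosolic transfer RNA synthetases, which join amino acids to their transfer RNAs and are ATF4 targets as a class, form the next list. Of 20 genes 17 rose in CIAKI, with a median of 0.70, and 17 fell in icariin against CIAKI, with a median of -0.81 beside 0.02 over all features. Mars (Mars1 in RefSeq) rose from 63.9 to 120 CPM (0.89, SE 0.07, adjusted p = 4.7e-05, limma) and Yars from 36.0 to 67.1 CPM. Nars rose from 82.8 to 155 CPM and Cars from 19.6 to 45.5 CPM. In icariin kidneys the means of these 4 were 65.4, 36.1, 81.5 and 19.1 CPM, close to control. The 3 that did not pass in CIAKI were Qars (0.18), Kars (0.19) and Dars (0.09).

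The promoters of these enzymes held the same core letters in 5 of 17 genes with a RefSeq promoter (29.4%), beside 3.4% of all promoters. They are shown because 17 of the 20 genes of this list rose together. Those with a match rose by 0.28 (Aars) to 0.95 (Tars). Most of the genes that rose were not among those with a match, such as Cars (by 1.18) and Sars (by 1.01). Each stretch reads along the gene's strand in GRCr8, with the match in capitals: Aars1 at chr19:55908354-55908393 (plus strand), Iars1 at chr17:15193653-15193692 (minus), Mars1 at chr7:65023754-65023793 (minus), Nars1 at chr18:60275783-60275822 (minus) and Tars1 at chr2:62114806-62114845 (minus). The match of Nars1 is in the other orientation.
Aars1: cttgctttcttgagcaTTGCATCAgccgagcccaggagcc
Iars1: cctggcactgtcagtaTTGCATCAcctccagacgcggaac
Mars1: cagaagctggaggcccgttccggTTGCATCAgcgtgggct
Nars1: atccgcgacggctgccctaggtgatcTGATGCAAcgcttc
Tars1: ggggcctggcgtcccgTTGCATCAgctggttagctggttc
Of the other lists, 8 of 28 promoters of further ATF4 and CHOP targets (28.6%) held it, as did 2 of 18 of the eIF2 machinery and 1 of 7 of the mitochondrial stress genes (14.3%). Of those 8 targets, Nupr1 (by 1.93) and Slc7a1 (by 1.06) rose in CIAKI. Jdp2 (-0.10), Pck2 (0.26), Herpud1 (-0.03) and Slc1a4 (-0.17) did not pass, and Fgf21 and Pycr1 were not among the genes tested. The letters were in 0 of 20 promoters of the serine, glycine and folate list, 0 of 14 of the ER stress list, 0 of 12 of the sestrin list and 0 of 6 of the relatives of the 10 genes. The shares are descriptions, with no test, and the lists were drawn up with earlier results of these data known.

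Other targets and partners of ATF4 and CHOP form a further list. Of 37 genes 30 were tested, of which 15 rose, 3 fell and 12 did not pass in CIAKI (median 0.59), and 4 rose and 16 fell in icariin against CIAKI (median -0.51). Those that rose in icariin against CIAKI were Cth, Cbs, Ddit4 (by 0.59) and Herpud1 (by 0.59). Slc6a9, the glycine transporter, was at 2.74, 3.06 and 3.79 CPM in control, 32.4, 17.4 and 26.0 CPM in CIAKI, and 5.95, 4.13 and 3.61 CPM in icariin kidneys. Slc7a11, which imports cystine for glutathione synthesis, was at 0.260, 0.474 and 0.370 CPM in control, 21.2, 20.4 and 5.75 CPM in CIAKI, and 0.230, 0.297 and 0.265 CPM in icariin kidneys. Both lay far higher in each CIAKI rat than in any other rat, and Slc7a11 passed the filter through the CIAKI libraries alone. They rose by 2.61 (SE 0.24, adjusted p = 9.5e-05, limma) and 3.43 (SE 0.39, adjusted p = 0.00028).

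Gpt2, a mitochondrial alanine aminotransferase, rose from 4.86 ± 0.562 to 30.2 ± 11.8 CPM (SD, n = 3), by 2.35 (SE 0.24, adjusted p = 0.00014, limma), and had 7.61 CPM in icariin kidneys. The 3 that fell were Cth and Cbs, the enzymes that make cysteine from homocysteine, and the lipoprotein receptor gene Vldlr. Cth was at 174, 209.6 and 147 CPM in control, 67.6, 76.8 and 78.4 CPM in CIAKI, and 207, 214 and 200.04 CPM in icariin kidneys. It fell by 1.23 (adjusted p = 0.00012, limma), and Cbs by 0.97 (adjusted p = 0.00082). Vldlr fell by 0.52 (adjusted p = 0.012). Cbs, Vldlr, Ddit4 and Herpud1 are named after their values were seen. In CIAKI the cystine importer thus rose while both enzymes that make cysteine in the cell fell. Neither Cth nor Cbs differed beyond the test's threshold between icariin and control.

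**Figure D3:**
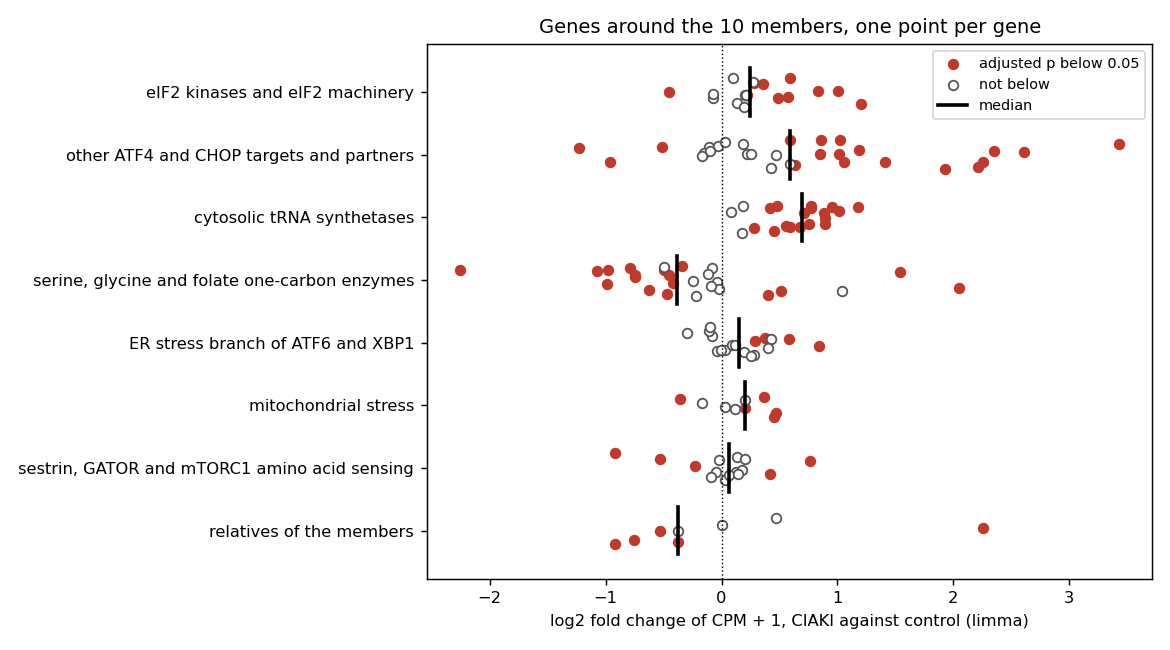
Log2 fold change in CIAKI against control (horizontal axis, log2(CPM + 1) scale) of every tested gene of 8 pathway lists around the 10 genes. Dots are single genes, filled where they passed the test, and the vertical marks are list medians. The transfer RNA synthetases lie almost wholly right of 0, with a median of 0.70, and the serine, glycine and folate enzymes mostly left of it, with a median of -0.38.

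The next list holds the enzymes of serine, glycine and folate one-carbon metabolism. Of 26 tested genes 13 fell, 4 rose and 9 did not pass in CIAKI (median -0.38), and 14 rose and 4 fell in icariin against CIAKI (median 0.43). Mthfd1, the cytosolic folate enzyme, fell from 255 to 152 CPM and Dmgdh, a mitochondrial enzyme of choline breakdown to glycine, from 235 to 140 CPM. Both fell by 0.75 (adjusted p = 9.1e-05 and 0.00013, limma), with no overlap between CIAKI and either other group. Their icariin means were 227 and 265 CPM.

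The genes of this list that rose were Mthfd1l and Mthfd2, both mitochondrial folate enzymes, and Gart and Atic, both purine synthesis enzymes. Mthfd1l was at 1.56, 1.97 and 1.72 CPM in control, 14.9, 10.1 and 7.22 CPM in CIAKI, and 3.97, 3.92 and 4.12 CPM in icariin kidneys. It rose by 2.05 (SE 0.22, adjusted p = 0.00019, limma). The icariin rats lay between the other groups, without overlap. Mthfd2, Gart and Atic are named after their values were seen, and they rose by 1.54, 0.40 and 0.51 (adjusted p = 0.00094, 0.012 and 0.00073, limma). Shmt1 and Shmt2, which take a carbon from serine, did not pass (-0.09 and -0.12). Many of these enzymes are known from the proximal tubule, whose summed markers were lowest in CIAKI, and the part of that in these values was not tested.

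**Figure D4:**
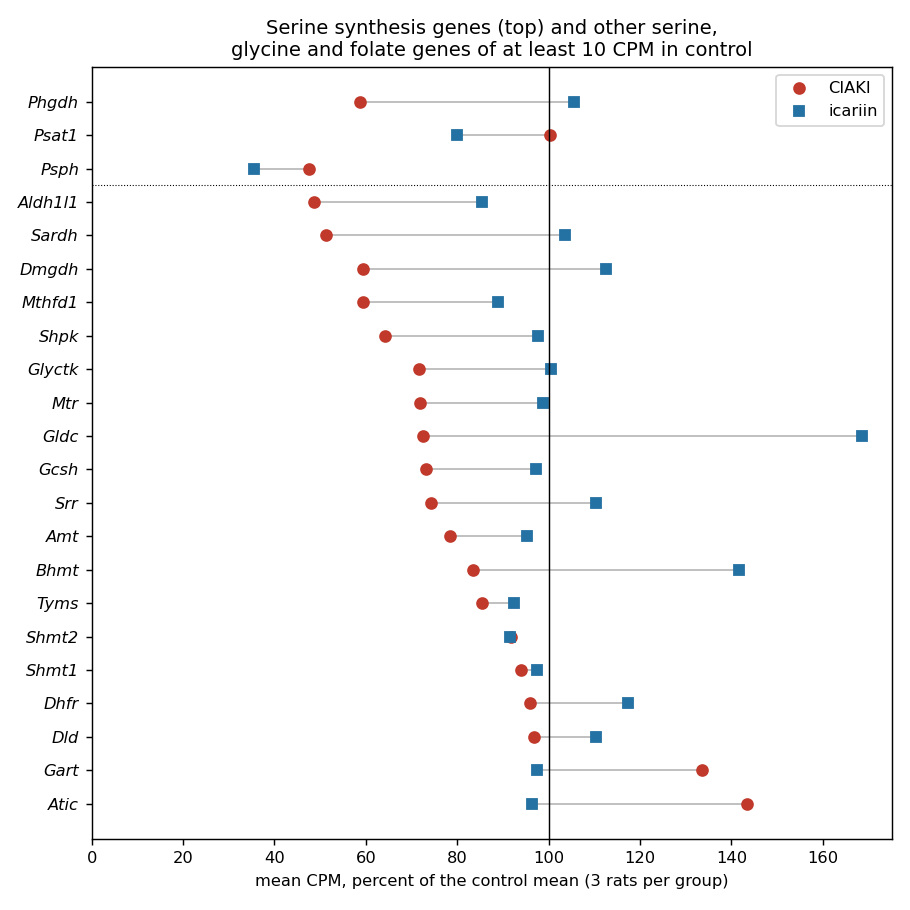
Mean level in CIAKI and in icariin kidneys as a percentage of the control mean (horizontal axis) for Phgdh, Psat1, Psph and the serine, glycine and folate genes shown with at least 10 CPM in control. Each line joins both values of 1 gene. Phgdh stands at 58.8% in CIAKI and 106% in icariin kidneys, and Psph at 47.6% and 35.6%.

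Genes of the other stress branches were counted in the same way, beside 20.8% of all features that rose and 20.5% that fell in CIAKI. Of 18 genes of the ER stress branch run by ATF6 and XBP1, 4 rose in CIAKI (Dnajb9 by 0.84, Hyou1 by 0.58, Ern1 by 0.37 and Pdia6 by 0.29) and 14 did not pass, with a median of 0.15. Dnajb9, an ER co-chaperone, had an adjusted p of 0.0013 and Hyou1, an ER chaperone, of 0.0034 (limma). The call of Pdia6 (adjusted p = 0.039) was lost without control rat 1 or 2, CIAKI rat 1 or 3, or any 1 icariin rat (0.054 to 0.12). The main ER chaperone gene Hspa5 (-0.11), Xbp1 (0.26) and Atf6 (0.03) did not pass. Of 9 tested genes of mitochondrial stress 4 rose (also Hspe1, by 0.21, named after its value was seen) and 1 fell. Afg3l2, an inner membrane protease, rose by 0.47 and Hspa9, the matrix chaperone, by 0.45. Clpp, a matrix protease, rose by 0.36, and Clpx, its partner, fell by 0.36 (adjusted p of these 4 from 0.00051 to 0.0067, limma). The call of Hspe1 (adjusted p = 0.043) was lost without any 1 rat other than CIAKI rat 1 (0.057 to 0.13).

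Among sestrins and amino acid sensing, the other sestrins fell. The shares over all features in CIAKI were 20.8% that rose and 20.5% that fell. Of 15 genes of the sestrin, GATOR and mTORC1 list 2 rose (Rraga, by 0.42, and Castor2, by 0.76) and 3 fell in CIAKI (Sesn1, Sesn3 and, named after its value was seen, Sec13, by 0.23, a call lost without control rat 3). Sesn1, the p53-responsive sestrin, fell from 50.1 to 26.2 CPM (by 0.92, adjusted p = 0.00037, limma) and had 40.5 CPM in icariin kidneys. Sesn3, a FOXO target, was at 161, 166 and 184 CPM in control, 116, 108 and 130 CPM in CIAKI, and 108, 126 and 113 CPM in icariin kidneys. Like Psph it lay below control in both groups given contrast medium. It fell by 0.53 in CIAKI (adjusted p = 0.0021) and by 0.56 in icariin against control (adjusted p = 0.040), the latter lost without any 1 control rat (0.10 to 0.18), any 1 icariin rat (0.066 to 0.14) or CIAKI rat 1 (0.051).

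Over the 140 tested genes of these 8 lists, 2 passed in icariin against control: Sesn3 and Castor1, an arginine sensor, which is named after its values were seen. Castor1 was at 30.8, 30.3 and 32.8 CPM in control, 32.9, 36.8 and 33.6 CPM in CIAKI, and 47.8, 56.4 and 48.4 CPM in icariin kidneys. It was higher in every icariin rat than in any other, by 0.68 against control (adjusted p = 0.013, limma). That call was lost without any 1 control rat (0.050 to 0.070) or icariin rat 2 (0.054). A further 21 of the 140 had an unadjusted p below 0.05, and DESeq2 called 9. Among all 16731 features 105 passed, 1704 had an unadjusted p below 0.05, and DESeq2 called 523.

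Of relatives of the 10 genes, 8 tested, 1 rose (Atf3) and 4 fell in CIAKI (Sesn1, Sesn3, Trib1 and, named after its value was seen, Trib2, by 0.38). Atf3, a stress factor of the same bZIP family, was at 5.65, 6.12 and 6.63 CPM in control, 23.7, 61.9 and 24.3 CPM in CIAKI, and 5.91, 7.83 and 2.27 CPM in icariin kidneys. It rose by 2.25 (SE 0.42, adjusted p = 0.0029, limma) and, like Atf4 and Chac1, was highest in CIAKI rat 2. Trib1, a pseudokinase relative of Trib3, fell by 0.76 (adjusted p = 0.035), a call lost without control rat 2 or 3, CIAKI rat 1 or 3, or icariin rat 2 (adjusted p from 0.050 to 0.12, limma). That of Trib2 was lost without control rat 1 or 2, or CIAKI rat 1 or 2 (0.099 to 0.13). Sesn1, Sesn3 and Atf3 also stand in the lists above.

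Profiles most like those of Atf4, Asns and Phgdh were ranked over 9383 named genes with a mean of at least 10 CPM, by the root-mean-square difference of centred log2(CPM + 1) over the 9 libraries. The genes nearest to Atf4 were Abl2 (0.063), Pnrc1 (0.098) and LOC108348069 (0.10). Abl2 had means of 26.0, 65.3 and 25.2 CPM in control, CIAKI and icariin kidneys. Nearest to Asns were Tubb4b and Plp2 (both 0.12) and Vmp1 (0.12), and nearest to Phgdh were Xylb (0.062), Alad (0.075) and Cntnap1 (0.084). Xylb had means of 380 CPM in control, 218 in CIAKI and 406 in icariin kidneys. Among the 10 genes themselves Atf4 and Asns were the closest pair (0.21), followed by Atf4 and Trib3 (0.22), and Chac1 and Psph were farthest apart (1.27). The minimum of 10 CPM was not applied to these pairs, and Trib3 and Chac1 lay below it. The added 1 CPM compresses their changes. On this scale Trib3 rose in CIAKI by 1.48, beside 1.34 for Atf4. On whole reads edgeR gave 2.65 for Trib3 and a value near 1.34 for Atf4. How close Atf4 and Trib3 are without the added 1 CPM was not tested.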

How the data were processed

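RNA of whole kidneys from 9 rats was flash frozen, taken with Trizol and sequenced from TruSeq libraries, per the labels. By the series' design text there were 3 rats in each group, so n counts rats. Bowtie 0.12.2 and the build mm8 are named in the submitters' processing notes. mm8 is a mouse build, yet the gene identifiers are those of rat Ensembl. The sources used here name no counter, annotation release or strand setting. The gene table was deposited in CPM. Divided by the value of 1 read, 100% of its entries were whole to within 0.1. These reads matched the authors' deposited counts of 3163 selected mRNAs in all 18978 entries compared. FPKM values are those deposited by the authors for the same mRNAs. Total reads were 64380578 to 90398405 per library.

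The test was limma 3.58.1 (R 4.3.3) with an intensity trend on log2(CPM + 1), with group as the factor, 2-sided, and calls at an adjusted p below 0.05. It was also run on simulated data in which few genes changed and all had the same spread. These data differ in both, so the simulation does not gauge the calls made here. Alternatives were other pseudocounts, filters and scalings, fewer samples, a replicate block, and edgeR 4.0.16 and DESeq2 1.42.0 on the recovered reads. The 10 genes and the pathway lists were chosen with earlier results of these data known. All 10 are named, with the 4 genes of smallest p in CIAKI against control of each list (1 of which is not reported here), and the 3 nearest profiles of Atf4, Asns and Phgdh. Promoters are RefSeq sequences of GRCr8, matched for 10 of 10 genes. Intervals are for the difference between group means. They rest on a spread between rats that is estimated for each gene over all 3 groups. The spread of the CIAKI rats thus also enters the intervals of icariin against control.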

Additional observations from a re-analysis of the deposited data

How the results depend on the processing

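Across up to 21 alternatives, Atf4, Atf5, Asns, Trib3, Chac1 and Phgdh kept their calls in both comparisons with CIAKI, as did Psph in CIAKI against control. Trib3 and Chac1 passed the main filter through their high CIAKI libraries alone, which limits what their kept calls show. The filter at 5 CPM left them out, so they had 20 alternatives. For icariin against control, 105 features were called, 52 with no filter on low values, 523 by DESeq2 and 31 to 127 when 1 rat was left out. Of the 10 genes 1 was called there, 0 with no filter or with the replicate block, and 0 to 1 when 1 rat was left out. Directions turned only where no call had been made. Psat1 in CIAKI against control went to -0.018 under upper-quartile scaling, to -0.019 under quantile normalization and to between -0.074 and 0.081 with 1 rat left out. In icariin against CIAKI, leaving out 1 rat moved Sesn2 to between -0.31 and 0.029 and Sesn3 to between -0.094 and 0.041, and quantile normalization moved Sesn3 to 0.016. In icariin against control, leaving out 1 rat gave -0.091 to 0.028 for Atf5, -0.014 to 0.14 for Chac1, -0.22 to 0.10 for Ddit3, -0.017 to 0.14 for Phgdh and -0.12 to 0.19 for Sesn2. The cause was not tested. The replicate numbers were not treated as pairs in the main test, and the block is given as an alternative. Deviations of same-numbered rats correlated at -0.035 to 0.081, and those of differently numbered rats at -0.10 to 0.036. The highest correlations were between same-numbered rats, so these values do not settle whether the numbers mark pairs. With the replicate block, the call of Psph in icariin against control was lost (adjusted p = 0.053). Depth limits Chac1, which rested on 4 to 24 reads in control libraries.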
